A study of Mus musculus with 4 samples.

Results

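Aminoacyl-tRNA synthetases load each transfer RNA with its amino acid, which makes them the enzymes that put the genetic code into practice. Mammalian cells run translation in the cytosol and in mitochondria, and most amino acids have a separate nuclear gene for the enzyme of each compartment, the mitochondrial one usually carrying a 2 at the end of its symbol. The enzymes fall into class I and class II by the fold of their catalytic domain. Several cytosolic ones are held together in the multi-synthetase complex, and many cytosolic synthetase genes are targets of ATF4, the transcription factor of the amino acid response.

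The genes described here were chosen by symbol from a written list of synthetases and not by a limit on their values. Earlier results of these data were known at that time. All 36 listed symbols were in the authors' table, which held 16709 symbols, and they comprised 20 cytosolic and 16 mitochondrial synthetases. Gars and Kars each encode the enzyme of both compartments and were counted as cytosolic.

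RNA was sequenced from 3T3-L1 cells, an established mouse fibroblast-like line that can become adipocytes and is labelled here as preadipocytes. The groups were cells given 25 µM Nutlin-3a for 24 h and cells given an equivalent amount of its solvent DMSO in parallel, with 2 biological replicates in each. Nutlin-3a blocks the binding of MDM2 to p53, and the comparison asks which transcripts differ once p53 is activated in this way. All cells were of 1 line and grew in serum-containing medium.

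Levels are FPKM, which counts fragments relative to transcript length and to all mapped fragments, and the authors' table holds 1 of these for each transcript in each group. No value below therefore has a replicate error, and no difference could be tested. "Higher" and "lower" describe the ratio of the authors' group values. FPKM was summed over the transcripts of a symbol, and log2 ratios are Nutlin-3a over DMSO after adding a pseudocount of 1 to both, which understates the ratio of low genes. A gene was compared with a mean of at least 1 FPKM and a value above 0 in both groups, and was counted as higher or lower past a 2-fold limit on that scale. Of 10331 genes compared, 6.62% were higher and 6.14% lower, with a median log2 ratio of 0.07 and quartiles of -0.33 and 0.44. Among markers of the labelled cell type, 7 of 8 were compared and 4 of these were lower, Cd34 being near 0 in both groups. All 4 markers of mature adipocytes were under 1 FPKM in both groups, and so were all 3 epithelial markers. Of the other cell types, Cd68 (6.52 against 2.91 FPKM), a macrophage marker, and Des (4.15 against 4.90 FPKM), a muscle marker, were above the minimum. The endothelial marker Pecam1 had 1.57 against 0.0260 FPKM. The part of other cells in the values below was not tested.

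Cytosolic synthetase messages were abundant and stayed inside the 2-fold limit, whereas mitochondrial ones were mostly lower in level. Of 15 mitochondrial genes compared, 2 were higher and 1 lower, beside 6.62% higher and 6.14% lower among all genes compared. These were Lars2, whose value is uncertain, Mars2, low in both groups, and Sars2, whose call was lost after a correction for GC content. In DMSO the cytosolic genes ranged from 12.1 FPKM (Iars, isoleucine) to 104 FPKM (Gars, glycine), with a median of 37.0 FPKM. In Nutlin-3a they ranged from 10.9 FPKM (Wars, tryptophan) to 117 FPKM (again Gars), with a median of 34.8 FPKM. The mitochondrial genes ranged from 0.465 FPKM (Mars2, methionine) to 67.2 FPKM (Lars2, leucine) in DMSO, with a median of 6.77 FPKM. In Nutlin-3a they ran from 0.588 FPKM (Wars2) to 1849 FPKM (Lars2), with a median of 5.68 FPKM. The summed level of the 20 cytosolic genes was 841 FPKM with Nutlin-3a against 853 FPKM with DMSO. Without Lars2, that of the mitochondrial genes was 96.1 and 101 FPKM, and with it 1945 and 169 FPKM. The order of neighbouring genes in either group cannot be set against a spread.

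**Figure D1:**
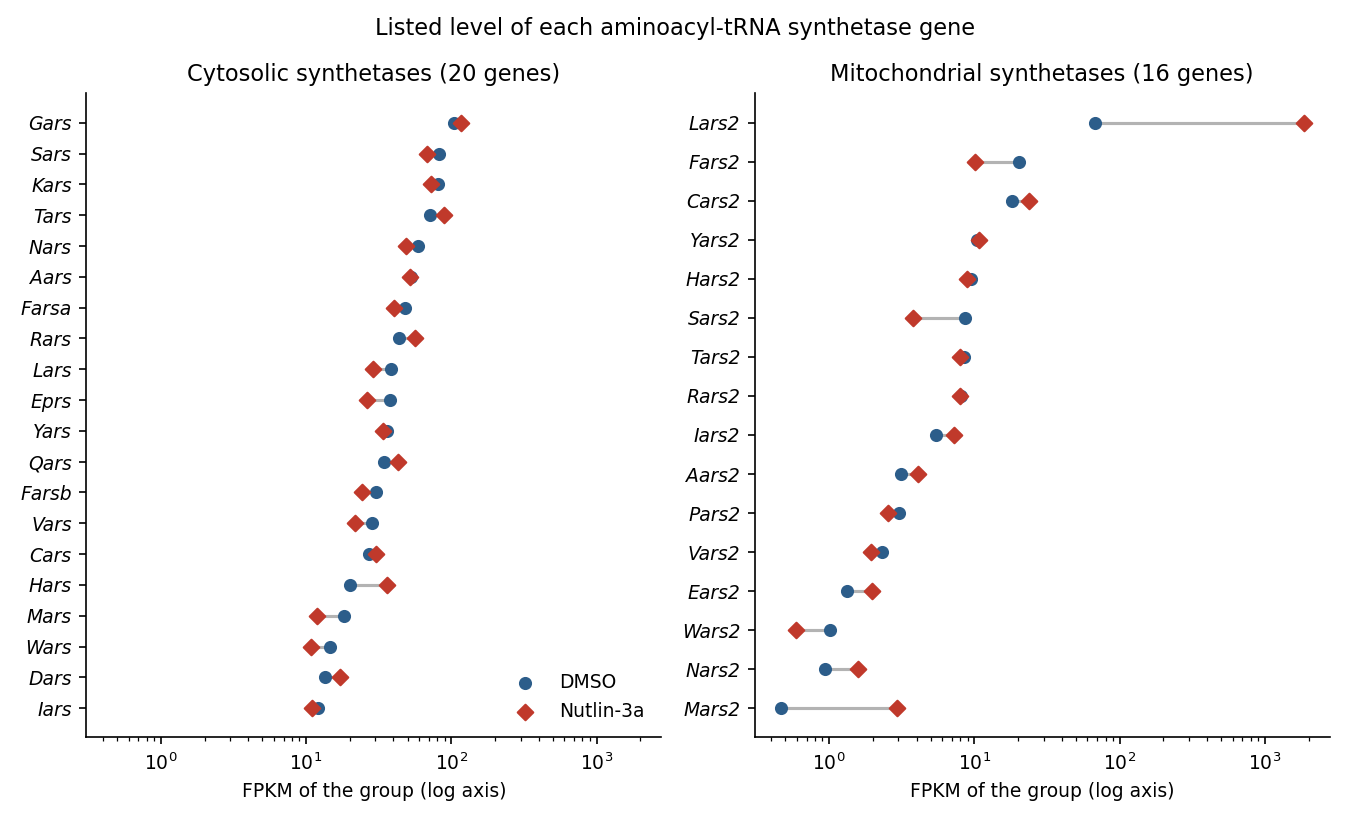
FPKM of each synthetase gene in DMSO (circles) and Nutlin-3a (diamonds) on a log axis, cytosolic genes on the left and mitochondrial genes on the right, each ordered by the DMSO value; each symbol is the authors' single value of a group. The cytosolic symbols nearly coincide between 10.9 and 117 FPKM, while Lars2 runs from 67.2 FPKM to 1849 FPKM and Mars2 from 0.465 to 2.95 FPKM.

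None of the 20 cytosolic genes passed the 2-fold limit in either direction, beside 6.62% higher and 6.14% lower among all genes compared. Their log2 ratios ran from -0.58 to 0.81 with a median of -0.15, 13 lay below 0 and 7 above, and 54.8% of all genes compared lay above 0. A total of 17 of the 20 lay within 0.5 of 0, as did 60.1% of all genes compared. At a 1.5-fold limit 1 cytosolic gene, Hars, was higher and none was lower, beside 17.8% higher and 15.2% lower among all genes compared.

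Hars, the histidyl-tRNA synthetase gene, stood highest among the cytosolic genes, with 35.9 FPKM with Nutlin-3a against 20.1 FPKM with DMSO. Its plain fold was 1.79 and its log2 ratio 0.81. The neighbouring gene Hars2, which encodes the mitochondrial enzyme for the same amino acid, had 8.88 against 9.46 FPKM, a log2 ratio of -0.08. At the other end stood Mars, for methionine, with 11.9 FPKM with Nutlin-3a against 18.3 FPKM with DMSO (log2 ratio -0.58). Next was Eprs, a fused enzyme that charges both glutamate and proline tRNAs, with 26.4 against 37.9 FPKM (-0.51). These 3 genes were the cytosolic members more than 0.5 from 0.

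Lower values of smaller size were listed for Lars, for leucine (28.9 against 38.6 FPKM, -0.40), Wars, for tryptophan (10.9 against 14.5 FPKM, -0.39), and Vars, for valine (21.7 against 28.4 FPKM, -0.37). Summed over transcripts, both subunits of the phenylalanine enzyme were lower. Farsa had 40.4 against 48.2 FPKM (-0.25) and Farsb had 24.3 against 30.4 FPKM (-0.31). With its main transcript alone, however, Farsb was higher (0.46). Nars, for asparagine, had 49.2 against 59.0 FPKM (-0.26), and Sars, for serine, had 68.5 against 81.8 FPKM (-0.25). Kars, for lysine, had 72.3 against 81.2 FPKM (-0.17). All of these lay well inside the limit.

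Little difference in either direction was listed for Aars, for alanine (52.0 against 52.6 FPKM, -0.01), Yars, for tyrosine (33.7 against 36.03 FPKM, -0.09), and Iars (10.96 against 12.1 FPKM, -0.13). On the higher side lay Rars, for arginine (56.0 against 43.5 FPKM, 0.36), Qars, for glutamine (43.3 against 34.3 FPKM, 0.33), Dars, for aspartate (17.0 against 13.5 FPKM, 0.32), and Tars, for threonine (89.6 against 71.9 FPKM, 0.31). Gars had 117 against 104 FPKM (0.17), and Cars, for cysteine, had 30.5 against 27.2 FPKM (0.16).

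Of the 16 mitochondrial genes, 15 were compared, since Wars2 fell under the minimum mean with 0.588 against 1.02 FPKM. Lars2 and Mars2 were higher, Sars2 was lower and 12 lay within the limit, beside 6.62% higher and 6.14% lower among all genes compared. The median log2 ratio was 0.04, with 8 genes above 0 and 7 below, and it was -0.03 after median centring. A total of 11 of 15 lay within 0.5 of 0.

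Lars2, which encodes the leucine enzyme of mitochondria, had 1849 FPKM with Nutlin-3a and 67.2 FPKM with DMSO (log2 ratio 4.76). It ranked 86 of 16709 symbols by FPKM in Nutlin-3a and 1270 in DMSO. The mouse Lars2 message carries a stretch that resembles large-subunit ribosomal RNA, so ribosomal fragments can be counted for it and its value is uncertain. Rn45s, the ribosomal RNA precursor, was also higher, with 458 against 249 FPKM, a plain fold of 1.84, and its part in the Lars2 value was not tested. The table holds a single Lars2 transcript, whose gene model lies on chromosome 9 from 123366940 to 123462664 (mm10). Without Lars2, the mitochondrial median was 0.00 and 1 of 14 genes was higher.

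Mars2, the mitochondrial methionyl-tRNA synthetase gene, had 2.95 FPKM with Nutlin-3a against 0.465 FPKM with DMSO. The plain fold was 6.34 and the log2 ratio 1.43. Its level was low in both groups, at rank 8261 and 11003. Mars2 is a gene of chromosome 1, listed from 55237177 to 55240058 with 1 transcript. Sars2, the mitochondrial seryl-tRNA synthetase gene on chromosome 7 from 28741968 to 28753879, had 3.77 FPKM with Nutlin-3a against 8.62 FPKM with DMSO. That is 2.29-fold lower, with a log2 ratio of -1.01, just past the limit. The call was lost after a correction for GC content, with a log2 ratio of -0.77. Sars2 has a GC content of 60.1% in its longest annotated transcript, against a median of 49.9% over the genes compared.

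Fars2, the mitochondrial phenylalanyl-tRNA synthetase gene on chromosome 13 from 36117643 to 36537595, had 10.1 FPKM with Nutlin-3a against 20.4 FPKM with DMSO. Its log2 ratio of -0.95 lay just inside the limit although the plain fold was 2.03, and it passed with a pseudocount of 0.1 (-1.01), after median centring (-1.02) and with its most abundant transcript (-1.01). Both Fars2 transcripts were lower, at 8.46 against 18.1 FPKM and 1.61 against 2.28 FPKM.

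The other mitochondrial genes differed less. Nars2 (1.58 against 0.936 FPKM, 0.41), Cars2 (23.9 against 18.1 FPKM, 0.38), Iars2 (7.29 against 5.40 FPKM, 0.37), Ears2, for glutamate (1.99 against 1.34 FPKM, 0.36), and Aars2 (4.07 against 3.12 FPKM, 0.30) lay on the higher side. Yars2 (10.8 against 10.4 FPKM, 0.04), Rars2 (7.92 against 8.14 FPKM, -0.03) and Tars2 (7.90 against 8.53 FPKM, -0.10) were nearly level. Vars2 (1.95 against 2.33 FPKM, -0.17) and Pars2, for proline (2.53 against 3.01 FPKM, -0.18), lay slightly lower.

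**Figure D2:**
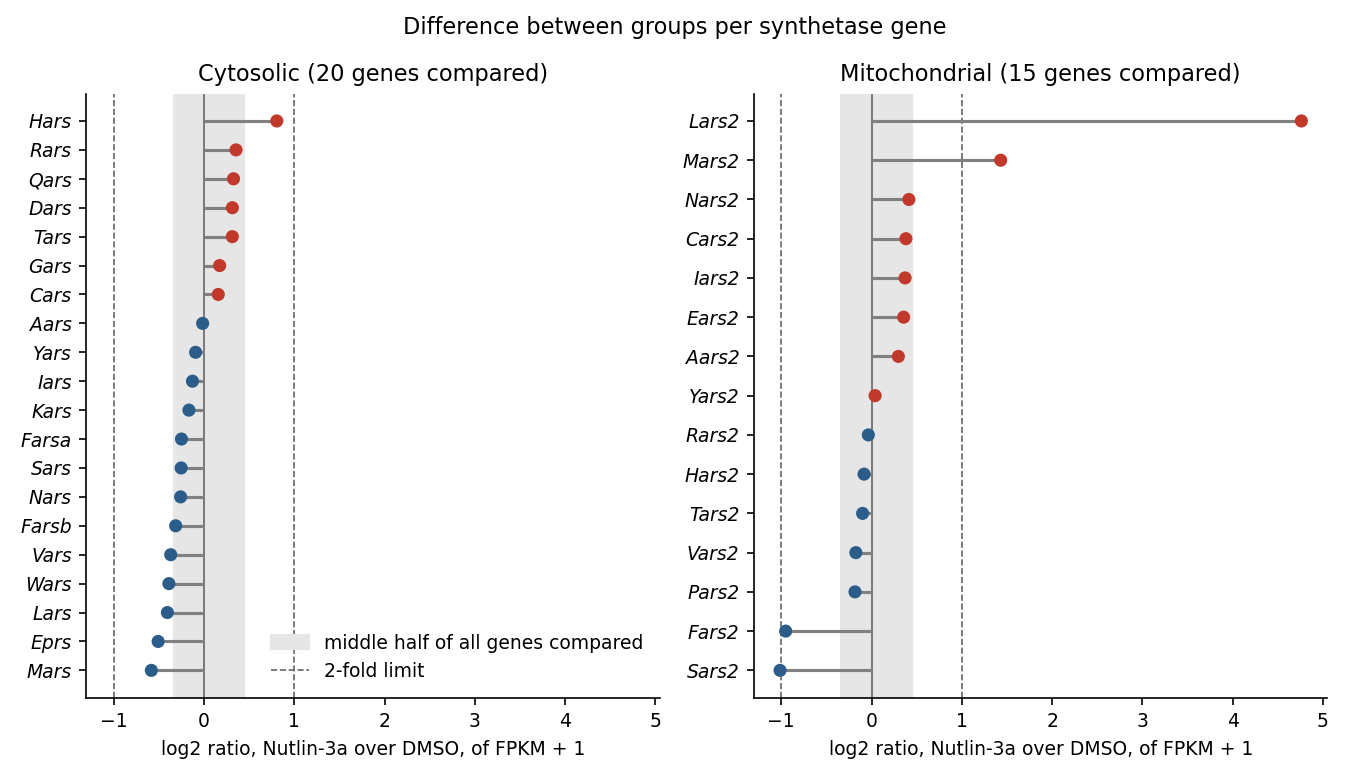
Log2 ratio of FPKM + 1, Nutlin-3a over DMSO, of each synthetase gene compared, with 20 cytosolic genes on the left and 15 mitochondrial genes on the right; the grey band spans the quartiles of all genes compared (-0.33 to 0.44) and dashed lines mark the 2-fold limit. Every cytosolic gene lies inside the dashed lines, Lars2 (4.76), Mars2 (1.43) and Sars2 (-1.01) lie outside, and Fars2 (-0.95) lies just inside.

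The mitochondrial median exceeded the cytosolic one by 0.19 on the log2 scale, which cannot be tested because genes are not replicates of a condition. That order turned when the 13 members whose listed span holds a whole other gene were left out (cytosolic median 0.17, difference -0.17). The gene inside is protein-coding only for Mars (Ddit3) and Yars (C77080). Leaving out the 4 members that share a span with another symbol, a choice made after seeing the data, kept the order (difference 0.13). When the genes were split by class, 2 of 17 class I genes compared were higher and none was lower (median 0.04), while 1 of 17 class II genes was lower and none was higher (median -0.10), beside 6.62% higher and 6.14% lower among all genes compared. The difference between the classes was not tested. The class I genes that were higher were Lars2 and Mars2, and the class II gene that was lower was Sars2. Eprs joins both classes in 1 protein and was counted in neither. Within the cytosol, class I had a median of -0.13 over 9 genes and class II one of -0.09 over 10 genes. In mitochondria class I had a median of 0.36 over 8 genes and class II one of -0.10 over 7.

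The 8 enzymes of the multi-synthetase complex (Dars, Eprs, Iars, Kars, Lars, Mars, Qars and Rars) had log2 ratios from -0.58 to 0.36 and a median of -0.15. The 12 cytosolic genes outside it had a median of -0.17. The scaffold proteins that hold the complex together were near their DMSO level too. Aimp1 had 121 against 136 FPKM (-0.17), Aimp2 had 55.7 against 52.4 FPKM (0.09), and Eef1e1 had 17.5 against 20.1 FPKM (-0.19).

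For the same amino acid, the cytosolic gene was listed above the mitochondrial one in 16 of 17 pairs in DMSO and in 16 of 17 in Nutlin-3a. The count sets Eprs against Ears2 and against Pars2, and each phenylalanine subunit against Fars2. In DMSO the FPKM of the cytosolic gene was 63.0 times that of the mitochondrial gene for asparagine (Nars over Nars2), 39.3 times for methionine and 28.4 times for glutamate. No pseudocount was added to these ratios. Those for asparagine and methionine rest on DMSO values under 1 FPKM, 0.936 for Nars2 and 0.465 for Mars2, and are uncertain. At the low end it was 1.49 times for the beta subunit of the phenylalanine enzyme (Farsb over Fars2) and 1.503 times for cysteine (Cars over Cars2). Leucine was the exception, with Lars at 0.574 times the level of Lars2 in DMSO and 0.0156 times in Nutlin-3a, subject to the uncertain Lars2 value.

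Several of these ratios differed between the groups although no cytosolic gene passed the limit. For methionine the ratio went from 39.3 in DMSO to 4.03 in Nutlin-3a, with Mars lower and Mars2 higher from only 0.465 FPKM in DMSO. For serine it went the other way, from 9.49 to 18.2, and for histidine from 2.12 to 4.04. In 10 of 17 pairs the ratio was smaller in Nutlin-3a. Of 16 pairs with both genes compared, 6 had log2 ratios of the same sign.

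**Figure D3:**
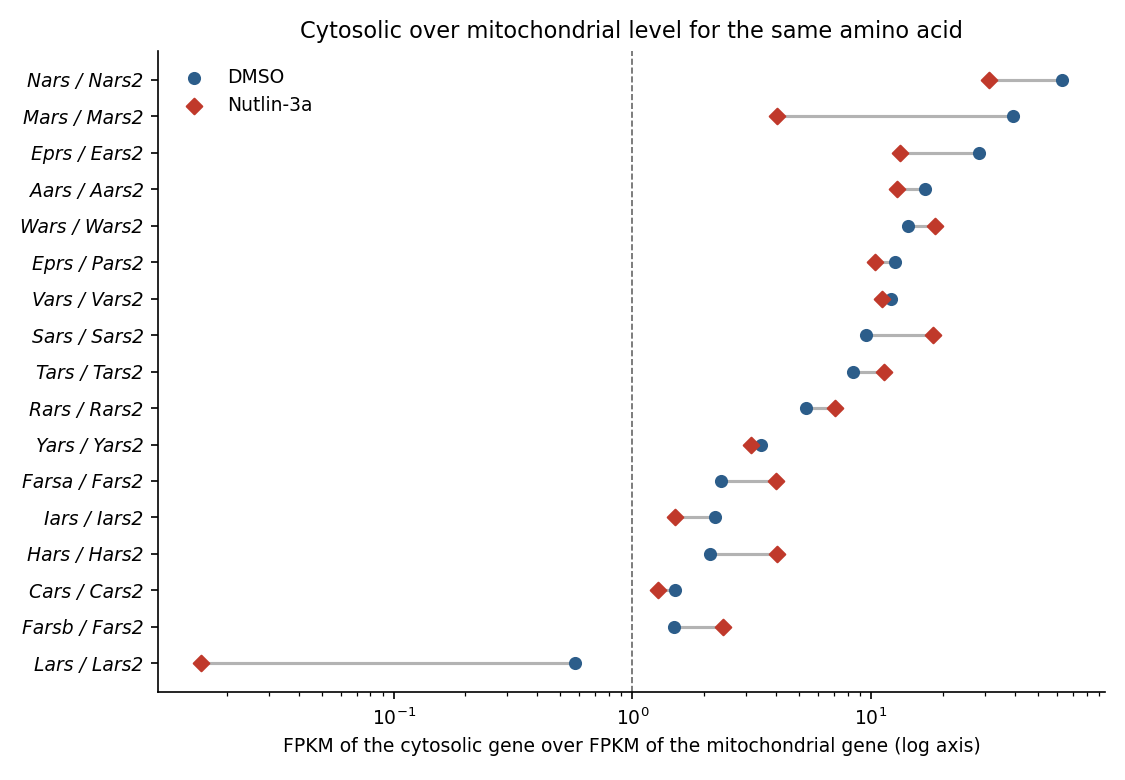
FPKM of the cytosolic gene over FPKM of the mitochondrial gene for the same amino acid, on a log axis, in DMSO (circles) and Nutlin-3a (diamonds), with a dashed line at 1. All pairs but Lars over Lars2 lie to the right of the line in both groups. Mars over Mars2 moves from 39.3 to 4.03, with Mars2 at only 0.465 FPKM in DMSO.

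The 36 genes were listed with 54 transcripts, 1 each for 24 genes and more than 1 for the other 12. In 7 of these 12, transcripts of a gene went both ways. Nars held the most even exchange, with 1 transcript at 32.04 against 20.8 FPKM and the other at 17.1 against 38.2 FPKM. The second transcript alone had a log2 ratio of -1.11, past the limit, while the sum of both had -0.26. Its share of the Nars level was 34.8% in Nutlin-3a and 64.7% in DMSO.

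Farsb, the beta subunit gene of the cytosolic phenylalanine enzyme, had 21.2 against 15.1 FPKM for its main transcript and 3.01 against 2.35 FPKM for another. The remaining Farsb transcript had 0.0248 FPKM with Nutlin-3a against 12.9 FPKM with DMSO, where it made up 42.4% of the gene. With the main transcript alone, Farsb had a log2 ratio of 0.46 in place of -0.31. Tars2 showed the same form, with a main transcript at 7.29 against 5.49 FPKM and another at 0.00365 against 2.11 FPKM. Wars also had a minor transcript near 0, at 0.000459 FPKM with Nutlin-3a against 1.45 FPKM with DMSO. Its main transcript, however, was lower with Nutlin-3a, with a log2 ratio of -0.33. In all 3 genes the transcript near 0 was near 0 in Nutlin-3a, and how the authors' software divided reads between transcripts of a gene was not tested.

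**Figure D4:**
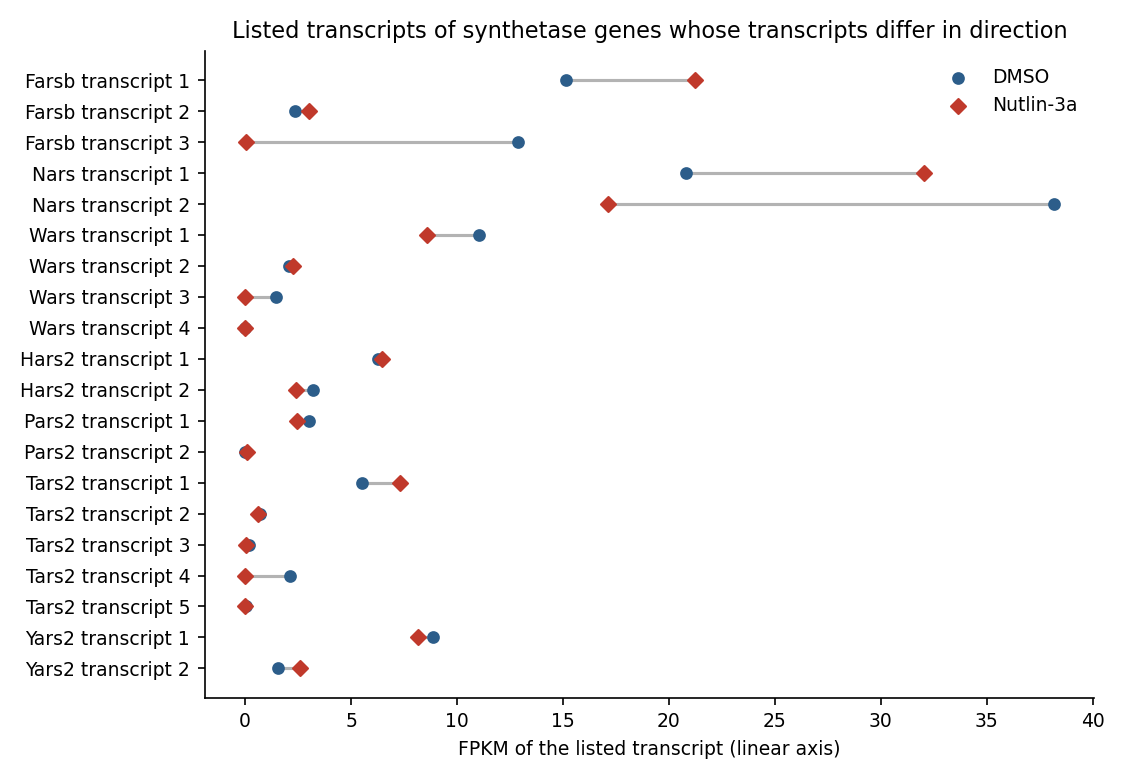
FPKM of every listed transcript of the 7 synthetase genes whose transcripts differ in direction, in DMSO (circles) and Nutlin-3a (diamonds), on a linear axis, with transcripts numbered by their Nutlin-3a level. The second Nars transcript goes from 38.2 FPKM in DMSO to 17.1 FPKM in Nutlin-3a while the first goes from 20.8 to 32.04 FPKM, and the lowest Farsb transcript goes from 12.9 FPKM to 0.0248 FPKM.

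A total of 4 synthetases were listed with the same start and end as another gene. Mars shared its span, on chromosome 10 from 127290793 to 127311786, with Ddit3, the gene of the stress transcription factor CHOP. Ddit3 had 285 against 336 FPKM (-0.24), far above Mars. Yars shared its span with C77080 (3.01 against 8.12 FPKM, -1.19), Iars2 with Rab3gap2 (3.13 against 2.26 FPKM, 0.34) and Farsb with Sgpp2 (0.0120 against 0.0348 FPKM). Whether reads of these neighbours entered the synthetase values was not tested. Without these 4 members no count of either class changed, and the medians were -0.13 for the cytosolic and 0.00 for the mitochondrial genes.

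The amino acid response acts through a composite element bound by C/EBP and ATF factors, and its letters were looked for in synthetase promoters. TGATGNAA was searched on both strands (TTNCATCA on the opposite one) in RefSeq promoters of GRCm38.p6, which is mm10, each running from 250 bases before to 50 after a start. A promoter was matched for 13 of 20 cytosolic and 14 of 16 mitochondrial genes, Mars under its later symbol Mars1. Those not matched were Cars, Hars, Lars, Nars, Rars, Vars, Wars, Hars2 and Pars2. The letters were found in promoters of 5 of these 13 cytosolic genes (38.5%) and of 0 of these 14 mitochondrial genes. They occur in 4.51% of 27025 genes and 3.97% of 32851 promoters of that length. A match is a description of letters and not a site of binding.

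The 5 genes were Aars, Gars, Iars, Tars and Yars, and their sequences are shown to place each match relative to the start. The search itself fixes all letters of a match but 1. For matches before the start the 120 bases up to the start are given (Aars chr8:111033722-111033841, Gars chr6:55037881-55038000, both + strand, and Tars chr15:11399659-11399778, - strand). For matches after the start, 30 bases around the match are given (Aars chr8:111033840-111033869, Iars chr13:49682126-49682155 and Yars chr4:129189895-129189924, all + strand). Each is written 5′ to 3′ on the strand of its gene, with the match in capitals.
Aars: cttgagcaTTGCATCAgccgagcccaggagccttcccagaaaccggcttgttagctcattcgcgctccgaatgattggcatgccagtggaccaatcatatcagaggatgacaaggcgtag
Aars, match after the start: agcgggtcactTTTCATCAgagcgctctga
Gars: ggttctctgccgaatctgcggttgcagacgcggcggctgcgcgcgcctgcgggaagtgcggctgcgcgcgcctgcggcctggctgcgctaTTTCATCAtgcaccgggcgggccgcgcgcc
Tars: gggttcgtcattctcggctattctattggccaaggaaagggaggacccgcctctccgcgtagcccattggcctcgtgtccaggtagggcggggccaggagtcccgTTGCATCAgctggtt
Iars: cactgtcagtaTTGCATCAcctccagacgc
Yars: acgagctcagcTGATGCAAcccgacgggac

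The match lay 112 to 105 bases before the start in Aars, 30 to 23 in Gars and 15 to 8 in Tars. It lay 8 to 15 bases after the start in Iars, 4 to 11 in Yars and 10 to 17 for the second match of Aars. Aars, Iars and Tars share the form TTGCATCA, of which the Yars match TGATGCAA is the reverse complement, and Gars and the second Aars match have TTTCATCA. The log2 ratios of these 5 genes ran from -0.13 (Iars) over -0.09 (Yars), -0.01 (Aars) and 0.17 (Gars) to 0.31 (Tars), so none was past the limit.

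Other genes of the amino acid response went both ways, with log2 ratios from -3.47 to 2.20. Of 23 compared, 3 were higher and 3 lower, with a median of -0.24, beside 6.62% and 6.14% of all genes compared and their median of 0.07. Nupr1, a stress-induced chromatin regulator, had 13.4 against 158 FPKM (-3.47) and Trib3, a pseudokinase that restrains the response, had 8.39 against 33.2 FPKM (-1.86). Sesn2, a sestrin that is also a known p53 target, had 5.40 against 0.392 FPKM (2.20), and the transcription factor gene Atf3 had 2.53 against 0.363 FPKM (1.37). Atf4, whose protein binds the element, had 178 against 328 FPKM, a log2 ratio of -0.87, and was named after its value was seen. Asns, the asparagine synthetase gene and a standard ATF4 target, had 129 FPKM in both groups (0.01), and was named after its value was seen. At a 1.5-fold limit 8 of the 23 were lower and 5 higher, beside 15.2% lower and 17.8% higher among all genes compared. Eif2ak4, the gene of the kinase GCN2 that senses uncharged tRNA, had 8.15 against 8.13 FPKM, and was also named after its value was seen. The letters were found in promoters of 8 of the 24 genes of this list with a matched promoter (33.3%). They occur in 4.51% of all 27025 genes searched.

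The partners of mitochondrial charging stayed within the limit in all 4 cases described here, with a median of -0.01. Among all genes compared 6.62% were higher and 6.14% lower. Mitochondria make glutaminyl-tRNA by amidating misloaded glutamyl-tRNA, and the 3 subunits of that amidotransferase differed in direction. Qrsl1 had 4.87 against 3.50 FPKM (0.38), Gatc had 5.55 against 5.76 FPKM (-0.05) and Gatb had 3.66 against 6.60 FPKM (-0.71). Mtfmt, which formylates the initiator methionyl-tRNA, had 4.74 against 4.64 FPKM (0.02). Mars2, whose product charges that tRNA, was listed higher beside a level Mtfmt value.

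Among relatives of the synthetases, none of 4 passed the limit (median -0.40), beside 6.62% higher and 6.14% lower among all genes compared. Dtd1, which removes D-amino acids from tRNA, had 6.65 against 13.6 FPKM (-0.93) and its relative Dtd2 had 3.17 against 4.30 FPKM (-0.35). Tarsl2, a threonyl-tRNA synthetase-like gene, had 0.826 against 1.495 FPKM (-0.45). Aarsd1, a gene with an alanyl-tRNA synthetase editing domain, had 75.6 against 73.4 FPKM (0.04).

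Of the factors that take charged tRNA to the ribosome, none of 6 cytosolic elongation genes passed the limit, beside 6.62% higher and 6.14% lower among all genes compared. Eef1a1 had 4613 against 5220 FPKM (-0.18), and the exchange factor subunits Eef1b2, Eef1d and Eef1g had log2 ratios of 0.38, 0.19 and -0.15. The translocase Eef2 had 479 against 457 FPKM (0.07) and Eefsec, the selenocysteine factor, had 5.95 against 6.06 FPKM (-0.02). None of 10 mitochondrial translation factors passed it either (median -0.03). Closest were the elongation factor gene Gfm1 (27.9 against 13.8 FPKM, 0.97) and the release factor gene Mtrf1 (1.11 against 2.95 FPKM, -0.91), followed by Guf1 (-0.46) and Gfm2 (0.30). On the plain scale Gfm1 was 2.03-fold higher and Mtrf1 had 0.374 times its DMSO level, so the added pseudocount keeps both inside the limit.

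Of 22 genes of tRNA maturation compared, 3 were higher and none was lower, with a median of 0.23. Among all genes compared 6.62% were higher and 6.14% lower, with a median of 0.07. Pop1 (15.5 against 3.63 FPKM, 1.84) and Pop4 (9.73 against 3.69 FPKM, 1.19) encode subunits of RNase P, which trims the 5′ end of tRNA. Elac2 (9.12 against 3.50 FPKM, 1.17) encodes the enzyme that trims the 3′ end. Tsen54, a subunit of the splicing endonuclease, had 23.5 against 13.2 FPKM (0.79). The difference between this list and the synthetases or all genes was not tested.

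**Figure D5:**
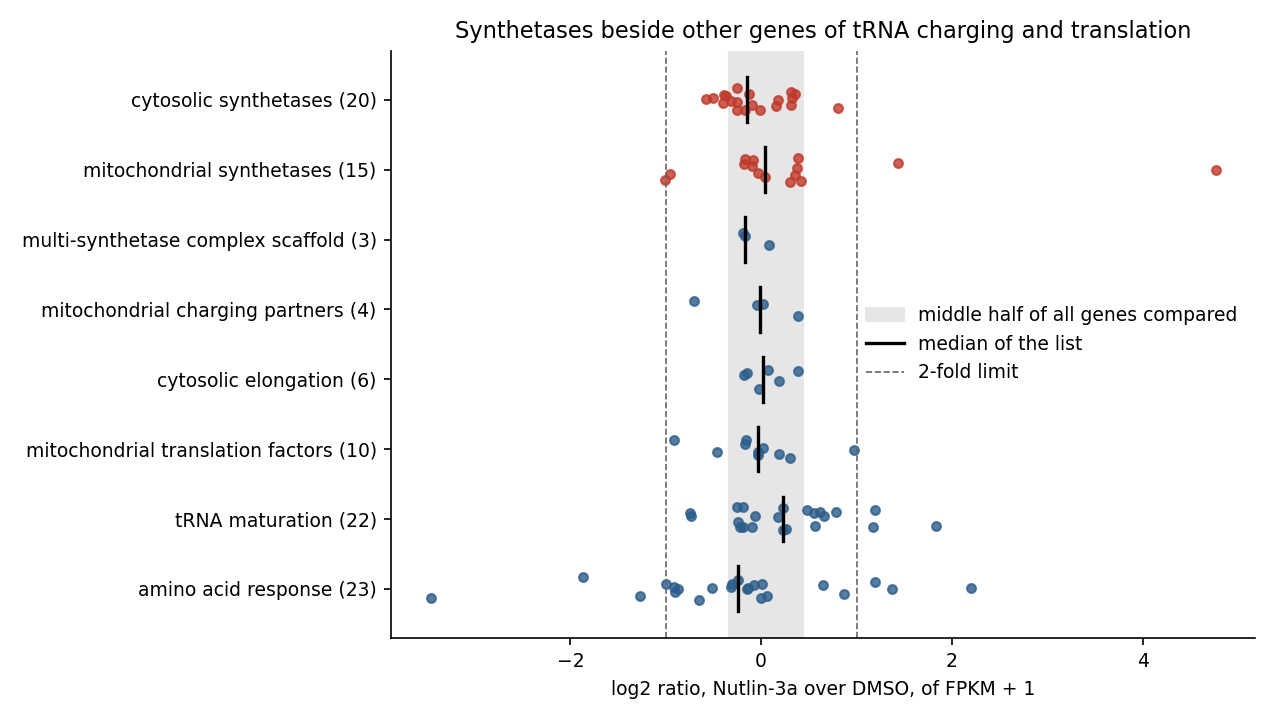
Log2 ratio of FPKM + 1, Nutlin-3a over DMSO, of every compared gene of 8 lists (number of genes in brackets; vertical position within a row is arbitrary), with black bars at list medians, a grey band over the quartiles of all genes compared and dashed lines at the 2-fold limit. The cytosolic synthetases lie between -0.58 and 0.81, and the amino acid response list runs from -3.47 to 2.20.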

How the data were processed

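Total RNA of 4 libraries of 3T3-L1 cells was sequenced, per the labels' protocols. Per the submitters' processing notes, the tools and builds include TopHat2 2.0.11 and mm10, with the quantifier and the merging of replicates not given in the sources used here. As for units, the authors deposited FPKM per transcript and group for 24746 transcripts; 4294 blank lines were dropped. A deposited pair of columns named as fold holds log2 values of the same FPKM (largest deviation 0.0071) and served no further purpose. The column prefix NUT was taken for Nutlin-3a, and DSM for the remaining group.

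Python 3.11.15 and pandas 2.3.3 were used. FPKM was summed per symbol, with a pseudocount of 1 and a minimum mean of 1. The planned limma fit needs a value per library, so a 2-fold limit took its place. Depth is unknown: 11.3% (Nutlin-3a) and 11.1% (DMSO) of low values of FPKM times length lay within 0.05 of a whole multiple of the most common one, so no read counts were recovered. Listed starts are printed counted from 1. GC content came from the longest GENCODE M21 transcript of a symbol, in 8 classes for the correction. Members, lists and motif were chosen with earlier results of these data known. All 36 members are named, and of other lists all genes where there are 7 or fewer, otherwise up to 4 with the largest absolute log2 ratio; Atf4, Asns and Eif2ak4 were named after their values were seen. A gene related to these lists is not reported here. Results were recomputed with other pseudocounts, filters, scalings and limits, after a GC correction, with the most abundant transcript and without some members.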

Additional observations from a re-analysis of the deposited data

How the results depend on the processing

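No paired analysis was possible because the table holds no value per library, and leaving out replicates could not be run for the same reason. Over 10 other settings, 24 of 35 synthetases kept both their sign and their side of the limit, 7 changed sign and 4 crossed the limit. The cause of these shifts was not tested. Lars2 (4.69 to 4.82) and Mars2 (1.26 to 2.43) stayed past the limit wherever they were compared.

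The number of mitochondrial genes lower was 2 in place of 1 with a pseudocount of 0.1, after median centring, with the most abundant transcript and at a 1.5-fold limit, and 0 after the GC correction. The share of all genes lower was 8.18%, 7.06%, 6.88%, 15.2% and 5.12% in these settings in turn, against 6.14%. The number higher was 1 in place of 2 with a mean of at least 5 FPKM, which leaves out Mars2, without Lars2, and without members whose span holds a whole other gene. Of the cytosolic genes, 1 was lower (Nars) with the most abundant transcript, and 1 was higher (Hars) at a 1.5-fold limit, where 17.8% of all genes were higher (1839) and 15.2% lower (1566). Among all genes, 391 of 6888 (5.68%) were higher with a mean of at least 5 FPKM, against 684 of 10331 (6.62%), so the lower count comes mostly from fewer genes compared. With the most abundant transcript the mitochondrial median was 0.30, and it exceeded the cytosolic one by 0.41. Without the 13 members whose span holds a whole other gene the cytosolic median was 0.17 and the difference -0.17. Leaving out the 4 that share a span with another symbol, a choice made after seeing the data, moved no count or median of either class beyond the tolerance used (1.5 times, or 0.1 on the log2 scale).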
